A study of Mus musculus with 16 samples.

Results

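The effect of the 5xFAD transgenes on the cortical transcriptome was measured by setting 8 libraries from transgenic mice against 8 libraries from mice without the transgenes, out of 16 libraries in all. The transgenic libraries comprised 4 from 5xFAD mice and 4 from 5xFAD-Dp16 mice. The comparison libraries comprised 4 from wild-type C57BL/6J mice and 4 from Dp16 mice. Libraries were chosen by genotype label alone, and Dp16 status and sex were terms of the model, so that the reported effect is the average over both Dp16 backgrounds. Every mouse was 9 months old, each group held 2 females and 2 males, and polyadenylated RNA was taken from brain cortex. The labels give no treatment and describe the libraries as separate samples, without litter or cohort.

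The 5xFAD line is a mouse model of Alzheimer's disease whose transgenes, human APP with familial mutations among them, are expressed in neurons from the Thy1 promoter. Amyloid plaques form in the cortex and hippocampus, and microglia and astrocytes gather and change state around them. Dp16 mice carry a duplication of the part of mouse chromosome 16 that matches human chromosome 21, and model trisomy 21.

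Library totals ran from 16874481 to 22912168 counts. The tissue label was checked with 28 genes of excitatory cortical layers, whose summed level was 1501 to 2529 CPM, TMM-normalized counts scaled to library size, without and 1684 to 2359 CPM with the transgenes. Genes of striatal projection neurons, a neighbouring region, summed to 1151 to 2809 CPM without and 1270 to 2801 CPM with the transgenes, and 19 genes of choroid plexus and ependyma to 38 to 1351 and 36.9 to 2431 CPM. Libraries also differed in how their levels followed gene length: the slope of log2 CPM on log2 length ran from -0.44 in wild-type replicate 3 to 0.282 in wild-type replicate 1. The 3 lowest slopes all belonged to mice lacking the transgenes, the next being -0.181 (Dp16 replicate 4) and -0.172 (Dp16 replicate 3). The highest slope was on that side too, and every transgenic library lay between -0.129 and 0.158. The slope was thus not spread alike on both sides of the comparison. Each count was therefore also taken from a fit with that slope as a covariate.

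The transgene label was checked at Thy1, the gene whose promoter is used in the transgenes. Its level was 736, 843 and 1051 CPM (lowest, median and highest of 8 libraries) without the transgenes and 1542, 1865 and 2205 CPM with them. The groups did not overlap, and the log2 fold change was 1.12 ± 0.10 (SE; adjusted p = 5.48e-06, edgeR's quasi-likelihood test with Benjamini-Hochberg adjustment, used throughout). Mouse App, the amyloid precursor gene, ranged from 729 to 2386 CPM without and 966 to 2357 CPM with the transgenes, with a log2 fold change of -0.06 ± 0.17 (adjusted p = 0.949). Each of these ranges spans libraries with and without the Dp16 duplication.

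Of 17555 genes tested, 411 rose (2.34%) and 5 fell (0.0285%) at an adjusted p under 0.05. Without adjustment, 1068 genes above 0 and 499 genes below 0 had a p under 0.05. The rises reached far: 83 genes rose by 2 or more on the log2 scale, 217 by 1 to 2, and 111 by under 1, of which 22 by under 0.5. The median rise was 1.30, against a median of -0.02 over all genes, with quartiles of -0.18 and 0.13. In 145 genes (0.826%) all 8 transgenic libraries lay above all 8 others, and 139 of these were among the called rises. No gene (0%) had all 8 transgenic libraries below all 8 others. All 411 rises were also called by DESeq2, and 298 were called in every fit that left out a single library.

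**Figure D1:**
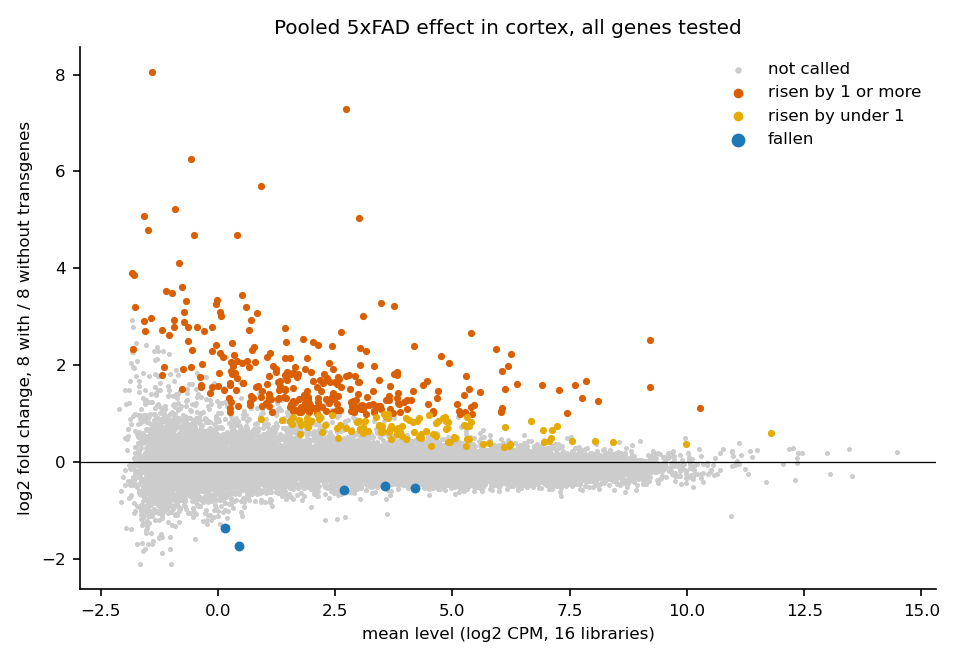
Log2 fold change of the pooled 5xFAD effect (8 libraries with against 8 without the transgenes) against the mean level in log2 CPM for each gene tested. Orange points rose by 1 or more, yellow points by under 1 and blue points fell; the 5 blue points stand against 411 orange and yellow ones.

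With the length slope as a covariate, 805 genes rose (4.59%) and 223 fell (1.27%), and the 411 rises and 5 falls were all kept. The common biological coefficient of variation was 0.286 without the slope term and 0.161 with it. Of the 805 rises, 237 were under 0.5, 448 under 1, 255 between 1 and 2, and 102 at 2 or more, while 212 of the 223 falls were smaller than 0.5. Against a fold of 1.2 (glmTreat), 451 genes rose and 1 fell with the slope term, and 304 and 0 without it. The 223 falls had a median of -0.25 and ran from -1.34 to -0.17, and 221 were protein coding.

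The 10 largest rises were taken among genes with a mean of at least 1 log2 CPM. Cst7, an inhibitor of lysosomal cysteine proteases, was at 0, 0.329 and 1.54 CPM without and 34.9, 92.7 and 166 CPM with the transgenes, a log2 fold change of 7.29 ± 0.43 (adjusted p = 1.42e-07). The remaining 9 rose by 2.48 to 3.29: Cd74, Ccl6, Gpnmb, Cd180, H2-Aa, C4b, Tlr2, Gfap and Oasl2. All 8 transgenic libraries lay above all others in 8 of the 10, the exceptions being Cd180 and H2-Aa. Clec7a, a receptor for fungal glucans on microglia, rose by 5.03 ± 0.50 (adjusted p = 1.54e-05); it was named after its value was seen, since the annotation calls it a polymorphic pseudogene. Because levels without the transgenes were near 0 for Cst7, its fold change depends on few reads.

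Rises of under 1 on the log2 scale made up 111 of the 411, and 16 of them separated the groups without overlap. Among the 15 of smallest p, several encode lysosomal enzymes. Hexa, a subunit of beta-hexosaminidase, was at 62, 79.1 and 84.9 CPM without and 94.7, 136 and 179 CPM with the transgenes. The groups did not overlap, and Hexa rose by 0.86 ± 0.12 (adjusted p = 0.000491). Naglu, which degrades heparan sulfate, was at 5.37, 8.51 and 11.5 CPM against 12.4, 15.5 and 23.5 CPM, again without overlap, and rose by 0.99 ± 0.15 (adjusted p = 0.00079). Ctsa, the protective protein of lysosomal neuraminidase and beta-galactosidase, was at 80.9, 96.3 and 120 CPM against 122, 150 and 193 CPM and rose by 0.66 ± 0.12 (adjusted p = 0.00386). Ctsl, the protease cathepsin L, rose by 0.74 ± 0.12 (adjusted p = 0.00116), with 7 of 8 transgenic libraries above all others.

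The other modest rises were of mixed roles. Il13ra1, a subunit of the receptors for interleukins 4 and 13, rose by 0.69 ± 0.12 (8.55 to 12.6 against 12.8 to 18.6 CPM; adjusted p = 0.00202). Tgfbr1, a receptor for TGF-beta, rose by 0.85 ± 0.14 (15.6 to 27.4 against 25.5 to 54.5 CPM; adjusted p = 0.00123), and Lyn, a Src-family kinase, by 0.93 ± 0.15 (6.72 to 13.6 against 7.61 to 28.2 CPM; adjusted p = 0.00156). Both overlapped in range, with 6 of 8 transgenic libraries above all others. Unc93b1, which carries nucleic-acid-sensing Toll-like receptors to endosomes, rose by 0.97 ± 0.17, and Parvg, an adhesion adaptor of leukocytes, by 0.75 ± 0.13. The related membrane proteins Tmem176a and Tmem176b rose by 0.80 ± 0.14 and 0.82 ± 0.12, Cyp4v3, a fatty acid hydroxylase, by 0.76 ± 0.11, and Mylip, a ubiquitin ligase for lipoprotein receptors, by 0.67 ± 0.11. All 15 kept their call in each of the 16 fits that left out a library.

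**Figure D2:**
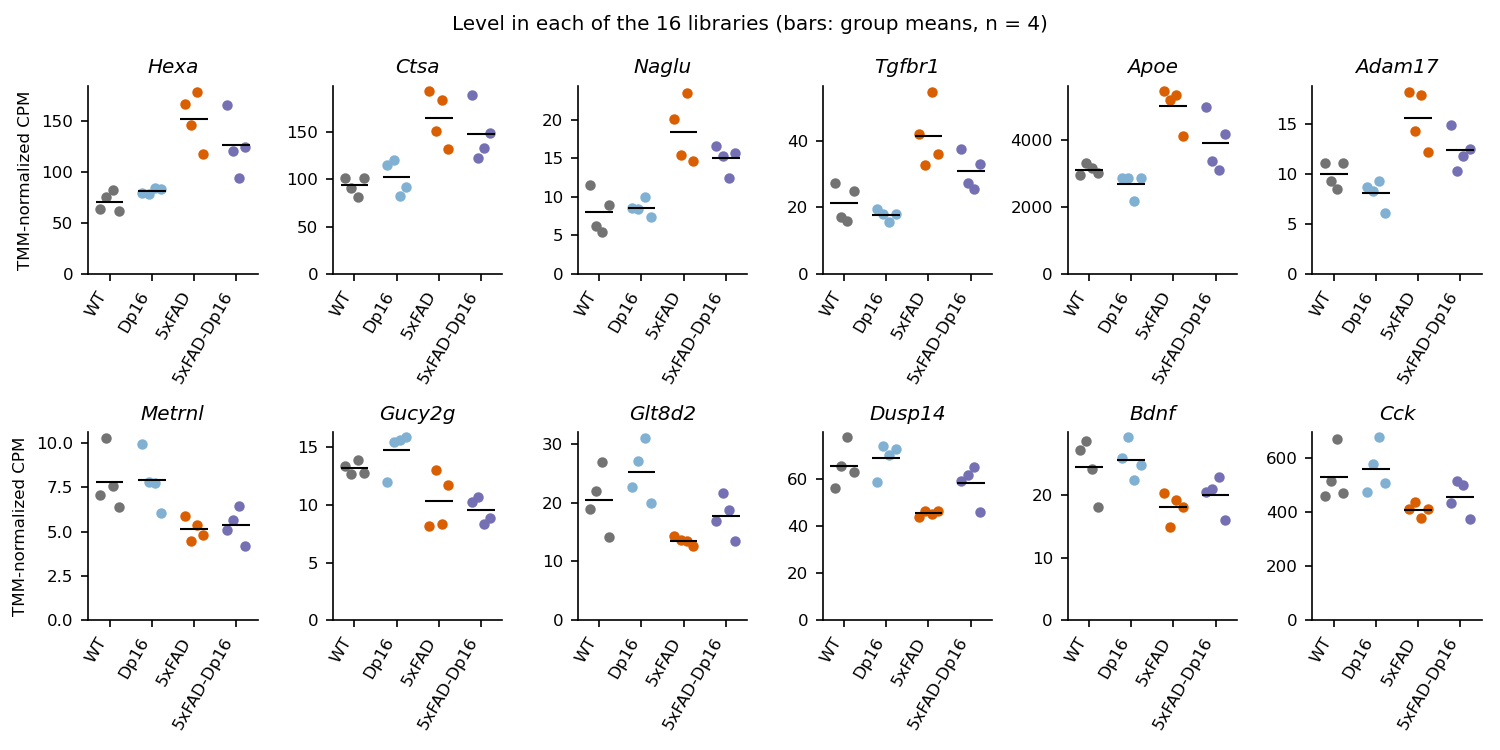
TMM-normalized CPM in each of the 16 libraries (points) with group means (bars, n = 4) for 6 genes that rose by under 1 (upper row) and 6 genes that fell or lay lower (lower row); the axes start at 0. Hexa, Ctsa and Naglu separate the 8 transgenic libraries from the rest, while every gene of the lower row overlaps. Metrnl, Gucy2g and Glt8d2 passed the test in the pooled fit; Dusp14, Bdnf and Cck passed only with the length slope.

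Microglial genes rose as a group. Of 17 pan-myeloid genes 16 rose, with a median log2 fold change of 1.48, and of 34 genes of plaque-associated microglia 24 rose, with a median of 1.53, where 2.34% of all genes rose. The pan-myeloid genes summed to 627 to 891 CPM without and 1013 to 2464 CPM with the transgenes. In bulk tissue, more cells of a type and more RNA per cell cannot be told apart. Cd68, a late-endosomal protein of phagocytes, was at 11, 12.7 and 15 CPM without and 26.2, 59.3 and 101 CPM with the transgenes and rose by 2.19 ± 0.21 (adjusted p = 1.28e-05). Trem2, the lipid receptor of microglia, was at 17.8, 25.6 and 47.1 CPM against 62.7, 150 and 213 CPM and rose by 2.34 ± 0.23 (adjusted p = 1.29e-05). Neither gene overlapped between groups.

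Genes of resting microglia rose less far. Of 24 homeostatic genes 13 rose, with a median of 0.78, and 21 lay above 0. Fcrls, an Fc receptor-like protein of resident microglia, rose by 1.45 ± 0.16 without overlap (23.8 to 34.1 against 46.9 to 137 CPM; adjusted p = 4.54e-05), and Siglech, a sialic acid-binding lectin, by 1.02 ± 0.14 (13.7 to 21.2 against 21.5 to 45 CPM; adjusted p = 0.000269). Cx3cr1, the fractalkine receptor, rose by 1.05 ± 0.16. P2ry12, the purinergic receptor for process extension, rose by 0.72 ± 0.15 (34.9 to 75.6 against 54.4 to 133 CPM; adjusted p = 0.01), and Tmem119 by 0.68 ± 0.15 (16.1 to 32.2 against 23.8 to 54.8 CPM; adjusted p = 0.0235). The ranges of the last 2 genes overlapped, and the call for Tmem119 was lost in 7 of the 16 fits that left out a library (adjusted p up to 0.0643). Among 35 genes of phagocytosis and immune signalling 20 rose (median 1.14), including the integrin chain Itgb2 by 1.86 ± 0.20 and the inhibitory Fc receptor Fcgr2b by 2.00 ± 0.22.

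Markers of other immune cells gave few calls. Of 10 tested genes of perivascular macrophages and monocytes 1 rose, where 2.34% of all genes did: Ly6c2 by 2.33 ± 0.58 (adjusted p = 0.0413). The list's median was 0.27, and its genes summed to 10.5 to 18.3 CPM without and 9.08 to 22.7 CPM with the transgenes. Of 18 listed genes of T, B and natural killer cells only 3 were expressed highly enough to test, and none passed. Of 10 listed genes of neutrophils and mast cells 3 could be tested, and none passed; they summed to 1.14 to 3.6 CPM without and 0.381 to 4.44 CPM with the transgenes.

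Complement tags debris and synapses for removal by microglia. Of 19 tested complement genes 9 rose (median 0.92). C1qa, C1qb and C1qc, the chains of the recognition molecule C1q, rose by 1.59 ± 0.13, 1.48 ± 0.14 and 1.59 ± 0.14. C1qc was at 61.7, 70 and 76 CPM without and 112, 229 and 315 CPM with the transgenes, and no chain overlapped between groups. C4b, the component downstream of C1q, rose by 2.66 ± 0.30; reads of the near-identical C4a can be split between both genes.

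Upstream sequence was compared among genes that moved together. The 250 bases before each gene's start (RefSeq, GRCm38.p6) were available for 12556 of the tested genes and searched on both strands for short motifs. The core of the site bound by PU.1, a transcription factor of myeloid cells, was spelled GAGGAAGT; it occurred in 2.72% of all tested genes, in 8.41% of the risen genes (26 of 309), in 4.49% of those risen by under 1 (4 of 89), and in 1.16% of the genes that fell with the length slope (2 of 172). Its match overlapped a CLEAR match (described below) in 1 gene and a cyclic AMP response element in 1 gene. A match is a description of letters and not evidence of binding. The matches before C1qc and Cyp4v3 are shown because these genes stand for a large and a modest rise; the capitals mark the motif, read here on the opposite strand (gene strand, 5′ to 3′).
C1qc (chr4:136893077-136893134, minus strand): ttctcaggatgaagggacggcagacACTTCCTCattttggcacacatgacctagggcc
Cyp4v3 (chr8:45333342-45333399, minus strand): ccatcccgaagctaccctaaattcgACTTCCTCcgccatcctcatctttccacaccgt

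Antigen presentation and the interferon response rose together with the microglial genes. Class I molecules show peptides from inside the cell, and class II molecules show peptides taken up by phagocytes. Of 20 class I and peptide-loading genes 9 rose (median 1.00), and 17 rose with the length slope. B2m, the light chain of class I, was at 115, 140 and 170 CPM without and 245, 386 and 428 CPM with the transgenes and rose by 1.33 ± 0.11 without overlap (adjusted p = 5.01e-06). The heavy chains H2-D1 and H2-K1 rose by 1.61 ± 0.17 and 1.39 ± 0.19, and reads of these related genes can be split. Of 9 class II genes 7 rose (median 2.35), among them H2-Ab1 by 2.35 ± 0.42 and H2-DMb1, which helps load peptides, by 1.24 ± 0.21. Ctss, the protease that trims the class II chaperone, was at 117, 128 and 148 CPM against 226, 443 and 572 CPM and rose by 1.68 ± 0.15 (adjusted p = 6.18e-06).

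All 40 interferon-stimulated genes tested lay above 0, and 25 rose (median 1.24; 35 rose with the length slope). Trim30a, an antiviral ubiquitin ligase, was at 1.93, 2.31 and 4.47 CPM without and 6.62, 8.9 and 14.1 CPM with the transgenes and rose by 1.74 ± 0.19 (adjusted p = 3.69e-05). Usp18, a brake on interferon receptor signalling, rose by 1.87 ± 0.23, and Irf9, a transcription factor of interferon signalling, by 1.22 ± 0.16. The groups did not overlap for any of these 3 genes. Of 24 cytokine, chemokine and innate receptor genes 8 rose (median 0.91), including the RNA sensor Tlr7 by 1.35 ± 0.20 and the chemokine Cxcl16 by 1.63 ± 0.24.

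The core of the interferon-stimulated response element (GAAA, any 2 bases, GAAA) occurred upstream of 3.17% of all tested genes, 11.3% of risen genes (35 of 309), and 57.1% of the interferon-stimulated list (16 of 28). It was found in 4.49% of genes risen by under 1 (4 of 89) and in 2.33% of genes that fell with the length slope (4 of 172), and overlapped no match of the other motifs. The share was 19.2% in the activity-induced list (5 of 26), most of whose members lay below 0. The matches before B2m, Ctss and Trim30a are shown because these 3 genes rose without overlap between groups; capitals mark the motif, which in Trim30a lies on the opposite strand.
B2m (chr2:122147523-122147582, plus strand): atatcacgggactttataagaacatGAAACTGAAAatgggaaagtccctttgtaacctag
Ctss (chr3:95526740-95526785, plus strand): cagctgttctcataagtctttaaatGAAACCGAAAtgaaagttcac
Trim30a (chr7:104465195-104465254, minus strand): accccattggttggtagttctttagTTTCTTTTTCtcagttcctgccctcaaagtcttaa

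Lysosomal genes changed unevenly. Of 49 tested genes 19 rose and 41 lay above 0, with a median of only 0.29, against -0.02 over all genes; the summed level of the list was 5959 to 6554 CPM without and 6976 to 10250 CPM with the transgenes, which did not overlap. Ctsd, the aspartic protease cathepsin D, was at 314, 342 and 433 CPM against 580, 1036 and 1615 CPM, and rose by 1.55 ± 0.16 (adjusted p = 2.21e-05). The E-box of the CLEAR element, through which TFEB is known to act on lysosomal genes, was spelled TCACGTGA. It occurred in 1.58% of all tested genes, 12.8% of the lysosomal list (5 of 39), and 1.29% of risen genes (4 of 309), so the share among risen genes was near that of all genes. The matches before Ctsd and Ctsa, shown for a large and a modest lysosomal rise, lie 92 to 99 and 6 to 13 bases before the start.
Ctsd (chr7:142387894-142387951, minus strand): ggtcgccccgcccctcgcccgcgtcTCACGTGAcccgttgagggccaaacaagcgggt
Ctsa (chr2:164833735-164833772, plus strand): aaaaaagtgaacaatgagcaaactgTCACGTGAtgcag

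Genes that handle lipid and amyloid included several modest rises. Apoe, the main lipid carrier of glia, was at 2182, 2922 and 3303 CPM without and 3117, 4583 and 5450 CPM with the transgenes. In 7 of 8 transgenic libraries it lay above all others, and Apoe rose by 0.61 ± 0.11 (adjusted p = 0.0045). Of 28 genes of amyloid production and clearance 3 rose, where 2.34% of all genes did. The list's median was 0.04, against -0.02 over all genes. Adam17, a protease with alpha-secretase activity, was at 6.06, 8.97 and 11.1 CPM against 10.3, 13.4 and 18.2 CPM and rose by 0.62 ± 0.12 (adjusted p = 0.00503). The protease inhibitor A2m rose by 1.41 ± 0.32 (adjusted p = 0.0246), a call lost in 6 of 16 fits that left out a library. Npc2, which exports cholesterol from lysosomes, rose by 0.66 ± 0.15 (adjusted p = 0.0274), a call lost in 9 of those fits (adjusted p up to 0.0824). Of 35 genes of cholesterol synthesis and lipid transport 3 rose, with a median of 0.13, again beside 2.34% of all genes. Clu, an extracellular chaperone, was at 0.50 ± 0.18 (adjusted p = 0.261) and rose only with the length slope (0.46 ± 0.09, adjusted p = 0.00217).

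Reactive astrocytes are known by intermediate filaments and secreted protease inhibitors. Of 33 reactive astrocyte genes 12 rose (median 0.71). Of these, 7 also stand in the microglial, lysosomal, complement, cytokine, interferon or class I lists, and 5 in this list alone: Gfap, Serpina3n, Osmr, Aspg and Ggta1. Gfap, the filament protein, was at 197, 216 and 549 CPM without and 669, 1492 and 2307 CPM with the transgenes and rose by 2.52 ± 0.22 (adjusted p = 6.21e-06). Serpina3n, a protease inhibitor, was at 4.83, 7.56 and 11.6 CPM against 25.4, 43 and 68.8 CPM and rose by 2.39 ± 0.22 (adjusted p = 7.31e-06). Neither overlapped between groups.

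All 24 homeostatic astrocyte genes were above 0 (median 0.23), where 8036 of 17555 genes were, and the list's median varied between libraries by an SD of 0.29. The test was passed by 1 of them, and by 7 with the length slope, where 2.34% and 4.59% of all genes rose. That gene, Aqp4, the water channel of astrocyte endfeet, was at 104, 116 and 144 CPM without and 112, 158 and 245 CPM with the transgenes and rose by 0.50 ± 0.12 (adjusted p = 0.0367), a call lost in 11 of 16 fits that left out a library (adjusted p up to 0.11). Slc1a3, a glutamate transporter, was at 0.27 ± 0.09 (adjusted p = 0.216) and rose with the length slope by 0.28 ± 0.06 (adjusted p = 0.00597). Mlc1, a membrane protein of perivascular endfeet, behaved alike, at 0.32 ± 0.11 (adjusted p = 0.216) and 0.29 ± 0.07 with the slope term (adjusted p = 0.0107).

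Oligodendrocyte genes showed small positive values. Of 26 myelin and oligodendrocyte genes 23 were above 0 (median 0.18), where 8036 of 17555 genes were, and the list's median varied between libraries by an SD of 0.22. The test was passed by 1 of them, where 2.34% of all genes rose: Gsn, the actin-severing protein gelsolin, by 0.38 ± 0.10 (55.4 to 73.9 against 68.3 to 101 CPM; adjusted p = 0.0474). The call for Gsn was lost in 14 of 16 fits that left out a library (adjusted p up to 0.117). Trf, the iron carrier transferrin, was at 0.43 ± 0.13 (adjusted p = 0.15), and Cldn11, the tight-junction protein of myelin, at 0.38 ± 0.14 (adjusted p = 0.287); both rose with the length slope, by 0.40 ± 0.10 and 0.33 ± 0.08 (adjusted p = 0.0163 and 0.00901). Among 18 genes of oligodendrocyte precursors none passed, and Neu4, a sialidase, was at 0.46 ± 0.13 (adjusted p = 0.0963). None of 20 endothelial genes (median 0.23) and none of 25 mural and fibroblast genes (median -0.17) passed.

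Stress and growth factor genes gave a few rises each, where 2.34% of all genes rose. Of 29 genes of antioxidant defence and iron handling 8 rose (median 0.20). Cyba, a subunit of the phagocyte NADPH oxidase, rose by 1.32 ± 0.25. Hmox1, heme oxygenase, was at 3.08, 4.97 and 5.52 CPM without and 6.26, 7.17 and 9.43 CPM with the transgenes, did not overlap, and rose by 0.70 ± 0.15 (adjusted p = 0.014). Nfe2l2, the transcription factor NRF2, rose by 0.59 ± 0.13 (adjusted p = 0.019), Prdx6, a peroxiredoxin, by 0.42 ± 0.10 (adjusted p = 0.0227), and the metallothionein Mt1 by 0.44 ± 0.10 (adjusted p = 0.0217). Leaving out single libraries ended the call in 2, 8 and 7 of 16 fits for these 3 genes. For Nfe2l2 these were the fits without wild-type replicate 2 or 5xFAD replicate 3 (adjusted p up to 0.0533). Of 30 genes of the integrated stress and unfolded protein response 2 rose: the transcription factor Atf3 by 1.16 ± 0.24 and Edem1, which sends misfolded glycoproteins to degradation, by 0.73 ± 0.17 (a call lost in 7 of 16 such fits, adjusted p up to 0.067). Of 27 neurotrophin and growth factor genes 2 rose, Igf1 by 1.15 ± 0.17 and Fgf2 by 0.71 ± 0.16. Igf1 also stands in the list of plaque-associated microglia. No heat shock chaperone of 25 passed (median -0.14).

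**Figure D3:**
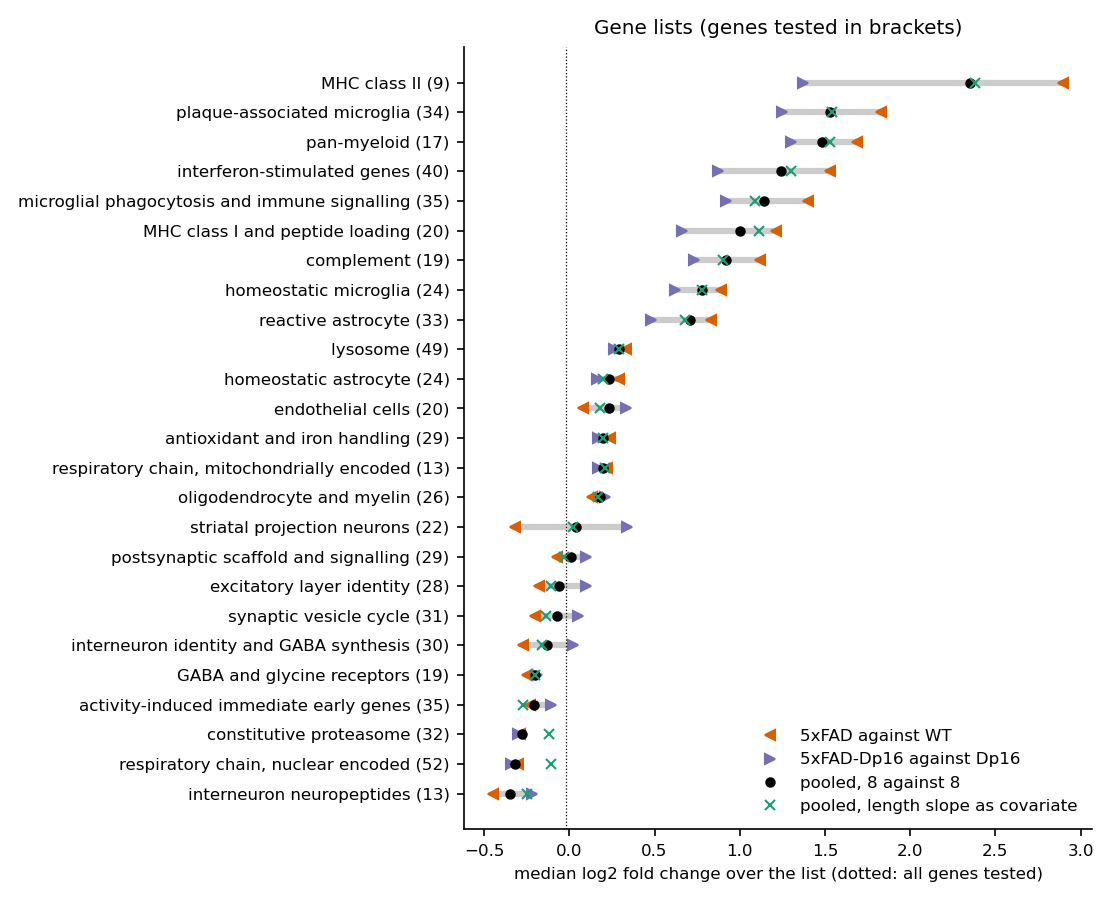
Median log2 fold change of 25 gene lists in the pooled comparison (black), in the pooled fit with the length slope (green crosses), and on each background (triangles); the dotted line is the median of all genes. MHC class II lies furthest to the right, at a median of 2.35, and interneuron neuropeptides furthest to the left, at -0.35; the nuclear respiratory chain and proteasome lists move towards 0 with the slope term.

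The comparison within each background used separate libraries, 4 against 4. Against wild-type, 5xFAD raised 264 genes (1.5%) and lowered 2 (0.0114%). Against Dp16, 5xFAD-Dp16 raised 68 genes (0.387%) and lowered none (0%). Of the 264, 263 were above 0 in 5xFAD-Dp16 against Dp16, where 51.2% of all genes were above 0; their medians were 1.80 on the first background and 1.19 on the other, and 209 kept at least 50% of their size. All 68 called on the Dp16 background were above 0 on the wild-type background, where 41.2% of all genes were, with medians of 1.78 and 2.19. Both comparisons shared 1 model and its estimate of spread.

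Pooling called 157 genes that neither background called alone, with a median of 1.04, and 73 of them rose by under 1. A further 65 of the 411 were called on both backgrounds, 187 only against wild-type and 2 only against Dp16. Adam17 shows such a gene: its log2 fold change was 0.62 on the wild-type background and 0.61 on the Dp16 background. Fgf2 gave 0.69 and 0.73.

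**Figure D4:**
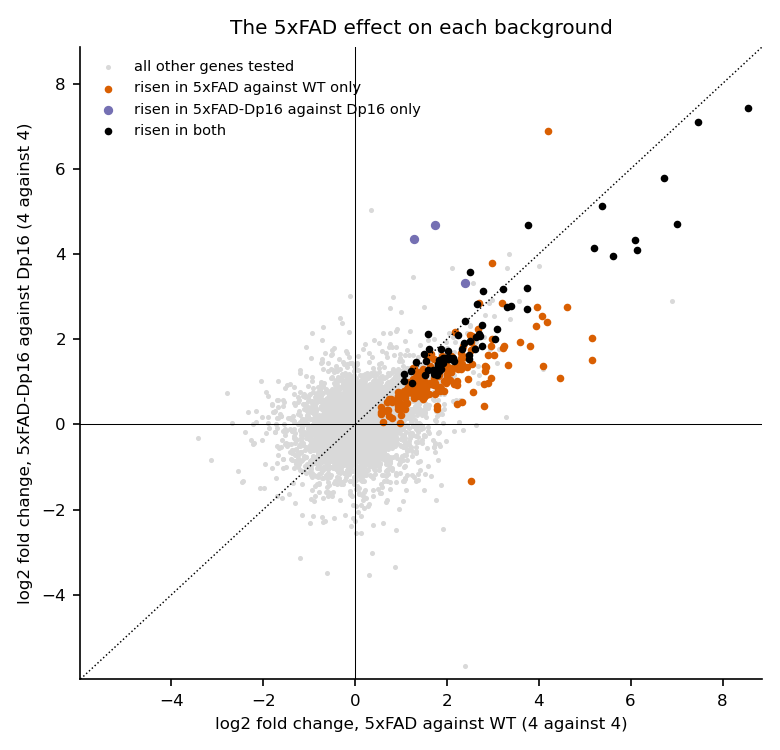
Log2 fold change of 5xFAD-Dp16 against Dp16 (vertical) plotted against that of 5xFAD against WT (horizontal), 4 libraries on each side, for each gene tested; the dotted line marks equal values. Of 264 genes risen against WT, 263 lie above 0 on the vertical axis, most of them under the dotted line.

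The difference of the effect between backgrounds passed the threshold for no gene in edgeR's quasi-likelihood test. Of 17555 genes 239 had an unadjusted p under 0.05, and DESeq2 called 1. Among the 411 risen genes 43 had an unadjusted p under 0.05, of which 42 rose less on the Dp16 background, and 364 of the 411 had a smaller estimate there. Over all genes the median log2 fold change was -0.05 on the wild-type and 0.01 on the Dp16 background. How many of all genes had a smaller estimate on Dp16 was not counted, and the 411 are not independent of each other. In these 43 stood H2-Aa, with a log2 fold change of 4.10 on the wild-type and 1.37 on the Dp16 background, Igf1 with 1.60 and 0.71, and Gfap with 3.04 and 2.00. For Gfap, Dp16 replicate 3 was at 549 CPM, against 197 to 290 CPM in the others without the transgenes. The part of that library in the difference was not tested. The difference between sexes also passed the threshold for no gene, with 1237 genes at an unadjusted p under 0.05 and 3 called by DESeq2. Of the 411, 89 had an unadjusted p under 0.05 and all 89 rose less in males, and 340 had a smaller estimate in males. The share of all genes with a smaller estimate in males was not counted either. Fits of 1 sex alone called 174 risen and 2 fallen genes in females and 60 and 0 in males.

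The 5 genes that fell in the pooled fit were in none of the lists. Metrnl (chr11:121701544-121716306, plus strand, GRCm38), a secreted meteorin-like protein, was at 6.06, 7.67 and 10.3 CPM without and 4.17, 5.24 and 6.48 CPM with the transgenes. In 7 of 8 transgenic libraries it lay below all others, and Metrnl fell by 0.58 on the log2 scale (SE 0.14, adjusted p = 0.0431). The change was -0.60 on the wild-type and -0.56 on the Dp16 background.

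Gucy2g (chr19:55198099-55241236, minus strand), a receptor guanylate cyclase, was at 12, 13.6 and 15.9 CPM without and 8.19, 9.61 and 13 CPM with the transgenes. Again 7 of 8 lay below all others, and Gucy2g fell by 0.49 (SE 0.12, adjusted p = 0.0439), with -0.36 and -0.62 on the separate backgrounds. Glt8d2 (chr10:82650433-82690650, minus strand), a glycosyltransferase-domain protein, was at 14.2, 22.3 and 31 CPM against 12.6, 14 and 21.7 CPM and fell by 0.54 (SE 0.14, adjusted p = 0.0481), with 4 of 8 below all others.

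The remaining falls were in genes near 1 CPM, below the level required for naming, and are given because the count is small. Xlr3b (chrX:73192207-73202930) was at 0.867, 1.7 and 6.16 CPM without and 0.349, 0.803 and 1.64 CPM with the transgenes and fell by 1.73 (SE 0.44, adjusted p = 0.0473). Its highest values, 6.16, 5.15 and 3.03 CPM, came from wild-type replicate 3 and Dp16 replicates 4 and 3, the 3 libraries of lowest length slope. With the slope term Xlr3b fell by 1.34 (SE 0.33, adjusted p = 0.0133). Reads can also be split among near-identical Xlr3 copies. Gm38642 (chr9:120193089-120280327), a predicted gene, fell by 1.36 (SE 0.35, adjusted p = 0.0482), from a median of 1.54 to 0.705 CPM. None of the 5 falls was called in every fit that left out a library: calls were lost in 12 or 13 of 16 such fits, with adjusted p up to 0.168. All 5 were also called by DESeq2.

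The fit with the length slope called 223 falls, and in the fit without it all 223 lay below 0, 152 had an unadjusted p under 0.05, and their median was -0.34. DESeq2, without the slope, called 41 of them. The number depended on single libraries, and ran from 48 without wild-type replicate 1 to 502 without 5xFAD-Dp16 replicate 3, with 29 of the 223 called in all 16 such fits. The 223 genes had a median length of 2.58 kb, against 3.05 kb over all genes tested.

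Genes of smallest p in that fit included neuronal and housekeeping genes. Stmn3, a stathmin that destabilizes microtubules, was at 827, 1238 and 2451 CPM without and 700, 958 and 1370 CPM with the transgenes; its change was -0.52 ± 0.22 (adjusted p = 0.452) without the slope term and -0.33 ± 0.07 with it (adjusted p = 0.00223). Dusp14, a phosphatase of MAP kinases, was at 56.1, 67.6 and 77.9 CPM against 43.9, 46.3 and 65.1 CPM, with 5 of 8 transgenic libraries below all others. Its values were -0.39 ± 0.10 (adjusted p = 0.0621) and -0.35 ± 0.07 (adjusted p = 0.00338). Cntnap2, a neurexin-family adhesion protein of axons, was at 78.2, 83.5 and 103 CPM against 56, 69.7 and 84.4 CPM, with 7 of 8 below all others, at -0.31 ± 0.09 (adjusted p = 0.0795) and -0.31 ± 0.07 (adjusted p = 0.00366).

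The other genes of smallest p changed by -0.24 to -0.49 with the slope term: Slc5a5, an iodide symporter, Ralyl, an RNA-binding protein, Mrpl3 of the mitochondrial ribosome, Map1lc3a of autophagosomes, Fbxo33, a ubiquitin ligase subunit, Polr2c of RNA polymerase, Crhbp, which binds corticotropin-releasing hormone, Slc39a10, a zinc importer, Uchl1, a neuronal deubiquitinase, Tango2, and the Glt8d2 and Gucy2g described above. The size was smaller with the slope term in Uchl1 (-0.44 without and -0.27 with it), Mrpl3 (-0.42 and -0.25) and Polr2c (-0.40 and -0.24). Larger changes with the slope term came mostly from genes of lower level: the tendon transcription factor Scx at -0.70 ± 0.19, Bmp3 at -0.56 ± 0.13, Ctxn3 at -0.54 ± 0.16, the matrix protein Ccn2 at -0.52 ± 0.13, the retinoid enzyme Rpe65 at -0.52 ± 0.15, Plch1 at -0.50 ± 0.14, the signalling protein Wnt2 at -0.48 ± 0.14 and Moxd1 at -0.47 ± 0.13. None of these 8 was called without the slope term (adjusted p = 0.0584 for Scx and 0.0597 for Ccn2, up to 0.459 for Plch1).

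**Figure D5:**
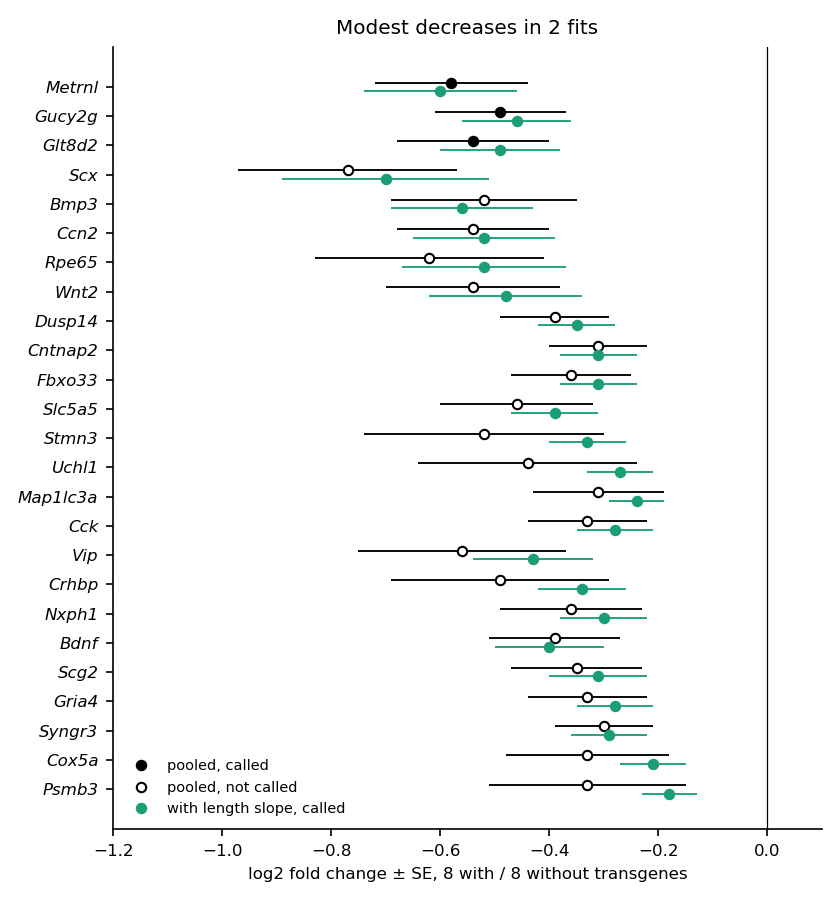
Log2 fold change with its SE (bars) for 25 genes that fell in at least 1 fit, without (black) and with (green) the length slope as a covariate; filled points passed the adjusted threshold and open ones did not. All 25 passed with the slope term and 3 without it, and SEs are smaller with the slope term.

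Neuropeptides mark classes of cortical interneurons. The list also held Calb2 and Crhbp, which encode no neuropeptide, and Penk and Tac1, which stand in the striatal list too. All 13 tested genes were below 0, with a median of -0.35 (-0.25 with the slope term) and an SD of the list's median between libraries of 0.27. None fell in the pooled fit, and 3 fell with the slope term (Cck, Vip and Crhbp), where 1.27% of all genes did. Cck, cholecystokinin, was at 461, 513 and 681 CPM without and 376, 423 and 516 CPM with the transgenes, with 6 of 8 transgenic libraries below all others; its values were -0.33 ± 0.11 (adjusted p = 0.24) and -0.28 ± 0.07 (adjusted p = 0.0149). Vip, vasoactive intestinal peptide, was at -0.56 ± 0.19 (adjusted p = 0.259) and -0.43 ± 0.11 (adjusted p = 0.0282). Sst, somatostatin, did not pass in either fit (-0.43 ± 0.16, adjusted p = 0.334, and -0.36 ± 0.11, adjusted p = 0.0667). Of 30 genes of interneuron identity and GABA synthesis 24 lay below 0 (median -0.13), where 9519 of 17555 genes did, and 2 fell with the slope term. These were Nxph1, a neurexin ligand, by 0.30 (adjusted p = 0.0184), and Gad1, of GABA synthesis, at -0.23 (adjusted p = 0.0235). With the slope term Gad2 (-0.13, adjusted p = 0.476) and Pvalb, parvalbumin (-0.36 ± 0.13, adjusted p = 0.135), did not pass.

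Activity-induced genes, switched on in neurons by calcium and cyclic AMP, were below 0 in 31 of 35 cases (median -0.21, and -0.27 with the slope term), and 3 fell with the slope term. Over all genes 9519 of 17555 lay below 0 and 1.27% fell with the slope term, and this list's median varied between libraries by an SD of 0.25. Bdnf, the neurotrophin, was at 18.1, 25.3 and 29.2 CPM without and 14.9, 19.7 and 22.8 CPM with the transgenes. The groups overlapped, and the values were -0.39 ± 0.12 (adjusted p = 0.13) and -0.40 ± 0.10 (adjusted p = 0.0146). Scg2, a granule protein, was at 205, 259 and 311 CPM against 156, 210 and 278 CPM, with -0.35 ± 0.12 (adjusted p = 0.269) and -0.31 ± 0.09 (adjusted p = 0.0489). The full cyclic AMP response element, spelled TGACGTCA, occurred in 2.87% of all tested genes, 4.65% of genes that fell with the slope term (8 of 172), 0.647% of risen genes (2 of 309) and 15.4% of the activity-induced list (4 of 26). The match before Scg2 is shown because this member of the list also fell with the slope term; it lies 61 to 68 bases before the start.
Scg2 (chr1:79440062-79440119, minus strand): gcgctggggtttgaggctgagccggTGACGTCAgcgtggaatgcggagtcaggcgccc

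Few receptor and synaptic genes passed, all of them with the slope term, where 1.27% of all genes fell. Of 19 GABA and glycine receptor genes 17 were below 0 (median -0.20 in both fits) and 2 fell with the slope term. Of 26 glutamate receptor genes 19 were below 0 (median -0.06) and 2 fell with the slope term, including Gria4, an AMPA receptor subunit of interneurons, at -0.28 ± 0.07 (adjusted p = 0.0142), with 6 of 8 transgenic libraries below all others. Of 31 genes of the synaptic vesicle cycle 4 fell with the slope term, among them Syngr3 (-0.29 ± 0.07, adjusted p = 0.00788) and Sv2b (-0.23 ± 0.07, adjusted p = 0.0476), and 1 rose, the active zone scaffold Rims1 (0.44 ± 0.08, adjusted p = 0.00061). No postsynaptic scaffold gene of 29 passed in either fit (median 0.01). Excitatory layer genes had a median of -0.06, with -0.18 on the wild-type and 0.10 on the Dp16 background, and 1 of 28 fell with the slope term, Ccn2. Beside them, the 22 genes of striatal projection neurons, of which none passed, had medians of -0.32 on the wild-type and 0.34 on the Dp16 background; their part in the layer values was not tested.

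Energy and protein turnover genes were the lists most tied to the length slope. Of 52 nuclear genes of the respiratory chain 51 lay below 0, and all 32 proteasome genes did, with medians of -0.32 and -0.28. With the slope term the medians were -0.11 and -0.12, and 3 and 1 genes fell, including Cox5a of cytochrome oxidase (-0.21 ± 0.06, adjusted p = 0.0255), Atp5g1 of ATP synthase (-0.20 ± 0.05, adjusted p = 0.025) and Psmb3 of the proteasome (-0.18 ± 0.05, adjusted p = 0.0393). Without the slope term Psmb3 was at -0.33 ± 0.18 (adjusted p = 0.632), and its value changed sign when the libraries of lowest slope were left out. The 13 mitochondrially encoded genes had a median of 0.20, and 1 rose with the slope term, mt-Nd5 (0.26, adjusted p = 0.0343). The cytochrome b gene mt-Cytb did not pass without the slope term (0.27 ± 0.11, adjusted p = 0.468) or with it (0.24, adjusted p = 0.0791).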

How the data were processed

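Polyadenylated cortical RNA was TRIzol-extracted and made into strand-specific libraries, per the labels' protocols. The authors deposited raw counts per gene for 55385 genes and 16 libraries, and RPKM values that they scaled by gene length and library total; the submitters' processing notes name HISAT2 2.1.0, HTSeq 0.6.1 and GRCm38. No source used here says if counting was stranded, which leaves overlapping and antisense genes uncertain. Counts were tested with edgeR 4.0.16 in R 4.3.3 (quasi-likelihood, TMM, filterByExpr with a minimum count of 10, robust dispersion) on a model of transgene, Dp16 and sex. Errors are SEs from the F statistic, and p-values weigh the difference against the spread between these libraries. The length slope was each library's regression coefficient of log2 level, less the gene's mean, on log2 length (11616 genes). Alternatives used DESeq2 1.42.0 and limma 3.58.1 (voom, and trend on log2(RPKM + 0.1) or log2(RPKM + 1)). Gene lists (48, with 1098 of 1144 symbols tested) and members were chosen with earlier results of these data known. Named genes were Thy1 and App; the called falls of approved symbol and a mean log2 CPM of at least 1 (with the slope term, the 15 of smallest p and 10 largest); the 10 largest rises; the 15 smallest-p rises under 1; and the 3 members of smallest p per list. Outside the rule, P2ry12, Tmem119, Cx3cr1, Nfe2l2, Prdx6, Clu, Clec7a, Xlr3b, Gm38642, Ly6c2, Gad1 and Gad2 were chosen after their values were seen. Coordinates are from GENCODE M21. Some genes that the rule picks are not reported here. The code was tested on simulated data.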

Additional observations from a re-analysis of the deposited data

Results flagged for a closer look

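A library was picked out for a closer look where it stood far from the other 7 of its side by Dixon's test, in 13 of 228 sets of 8 values over 114 genes; chance gives about 1 in 20 such sets. On the side without the transgenes, wild-type replicate 3, the library of lowest length slope, was low for Gpnmb (1.03 CPM, the others 2.54 to 4.52), Unc93b1 (10.6, the others 14.6 to 18.8) and Sv2b (309, the others 367 to 422). It was high for C1qa (155, the others 100 to 116), C1qb (136, the others 81.5 to 100) and Map1lc3a (473, the others 265 to 339). Dp16 replicate 3 was high for Gfap (549, the others 197 to 290) and low for Apoe (2182, the others 2852 to 3303), and Dp16 replicate 4 was high for Cntnap2 (103, the others 78.2 to 85.9). Wild-type replicate 2 was low for Cyp4v3 (6.62, the others 7.9 to 9.1) and wild-type replicate 4 for Syngr3 (120, the others 144 to 167). On the transgenic side, 5xFAD replicate 1 was low for Vip (24.1, the others 44.9 to 75.4) and 5xFAD-Dp16 replicate 3 for Npc2 (114, the others 171 to 207).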

How the results depend on the processing

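The 411 rises and 5 falls were recounted under each alternative. Risen genes numbered 805 with the length slope and 631 with voom quality weights, and the other alternatives, apart from the single-sex and blocked fits given further on, stayed within 1.5 times of 411. Fallen genes numbered 223 with the length slope, 120 without a low-count filter, 53 by DESeq2, 46 with voom quality weights, 31 without the 3 libraries of lowest slope, 8 without the sex term and 2 under the stricter filter. None fell with one mean per group and an averaged contrast (0), nor past a fold of 1.2 (0, glmTreat; 1 with the length slope). The cause of these differences was not tested. Leaving out a library gave 323 to 416 rises and 0 to 8 falls; 0 falls remained without 5xFAD replicates 1 or 3, 5xFAD-Dp16 replicate 1 or Dp16 replicate 3. With the length slope, the same gave 535 (without wild-type replicate 1) to 879 rises and 48 to 502 falls. The falls with the slope term left 1.5 times of 223 without wild-type replicates 1 to 4 (48, 109, 109 and 134), 5xFAD replicates 1 to 3 (104, 63 and 122), 5xFAD-Dp16 replicates 1, 3 and 4 (123, 502 and 145) and Dp16 replicate 1 (341).

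Chosen after seeing the data, the fit of females alone called 174 rises and 2 falls, and that of males alone 60 and 0. The difference between backgrounds was called in 0 genes, in 1 by DESeq2 and in 25 without a filter; that between sexes in 0, 3 and 167. Both stayed at 0 in all 16 fits that left out a library. The replicate block gave 405 rises and 5 falls, and with the length slope 952 and 709. Whether replicate numbers pair libraries was not tested. Of 24 same-numbered pairs 9 had a correlation over 0.1, and 7 of 16 libraries correlated best with their own number. Correlations ran from -0.35 to 0.51 in same-numbered pairs and from -0.62 to 0.45 in the others.

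In the pooled fit without the length slope App and Psmb3 were uncalled, and their values changed sign under alternatives. App was at 0.02 with both RPKM pseudocounts and at -0.15 to 0.03 over fits that left out a library. Psmb3, called with the slope term, was at 0.01 in the fit without that term and without the 3 libraries of lowest slope. Depth was similar across libraries, and genes near 1 CPM rest on few reads.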

Other observations

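Mme and Emb, named after their values were seen, are given with their change on each background. Mme, the amyloid-degrading protease neprilysin, changed by -0.85 on the wild-type and by -0.06 on the Dp16 background. The pooled value was -0.45 ± 0.17 (adjusted p = 0.317, edgeR), and the difference had an unadjusted p of 0.0113 and did not pass after adjustment. Emb, an adhesion protein that chaperones lactate transporters, gave -0.59 and -0.04, with a pooled value of -0.31 ± 0.12 (adjusted p = 0.312) and an unadjusted p of 0.0121 for the difference. The genes of striatal projection neurons also differed between backgrounds, with medians of -0.32 on the wild-type and 0.34 on the Dp16 background. Their part in the values of Mme and Emb was not tested. Of the 411 risen genes 254 were in none of the 48 lists, as were 195 of the 223 genes that fell with the length slope.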
